A study of Caenorhabditis elegans with 51 samples.

Results

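The 6 vitellogenin genes of Caenorhabditis elegans, vit-1 to vit-6, were described for the small RNA reads they carried in total small RNA (input) and in small RNA co-precipitated with the Argonaute proteins HRDE-1 and CSR-1. They were taken as the rows of the deposited small RNA immunoprecipitation (sRIP) table whose gene symbol is one of these names. The rows comprise 8 gene models, since vit-2 and vit-6 each have 2. After keeping 1 model per symbol they are 6 of 20202 genes. The series studies small RNA made against an oma-1 fragment placed in the retrotransposon Cer3, and 6 of its 51 samples are used here. All 6 libraries came from young adults of 1 strain, CSS342, which carries Cer3(red20) with oma-1 as the inserted fragment and both SF-HRDE-1 and c-myc-CSR-1. The 3 groups are the input, the HRDE-1 sRIP and the CSR-1 sRIP, all with these tags and this insertion, and each has 2 libraries. No mock or untagged precipitation is among the samples used, and no label says that the libraries of a group derive from separate cultures. The spread behind each p-value is therefore that between libraries and may be technical. In the main fits it is that of the HRDE-1 and CSR-1 pairs alone, since the input pair entered as 1 sample.

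Vitellogenins are the yolk proteins of nematodes. They are made in the intestine of the adult hermaphrodite, secreted into the body cavity and taken up by growing oocytes through the receptor RME-2. HRDE-1 is a nuclear Argonaute of the germline that carries silencing 22G small RNA, and CSR-1 is a germline Argonaute that carries small RNA matching many expressed germline genes. The strand counted is not given in the sources used here, so each value is a number of small RNA reads assigned to a gene, whether sense or antisense.

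Vitellogenin genes are known as a family with close copies, and the annotation (WBcel235) gives the exon structure of each. Sequence identity between the copies was not computed. vit-1 lies on chromosome X at 7727889 to 7733168 on the plus strand and vit-2 on X at 5101042 to 5106169 on the plus strand, each with 5 coding exons and coding lengths of 4851 and 4842 bases. vit-5 lies on X at 3403471 to 3408603 on the plus strand. vit-4 and vit-3 lie on X at 3558769 to 3563965 and 3567355 to 3572549, both on the minus strand, 3389 bases apart. vit-3, vit-4 and vit-5 share a coding length of 4812 bases and have the same 6 coding exon lengths, 864, 285, 3038, 229, 136 and 257 bases. vit-6, whose product differs from the other yolk proteins, is the single member on chromosome IV, at 8261157 to 8266459 on the plus strand, with 5 coding exons and 4953 coding bases. The build behind the deposited table is not given in the sources used here, and these positions belong to the annotation. How reads that match several copies were counted is also not given, so the split of reads among vit-1 to vit-5 is uncertain.

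**Figure D1:**
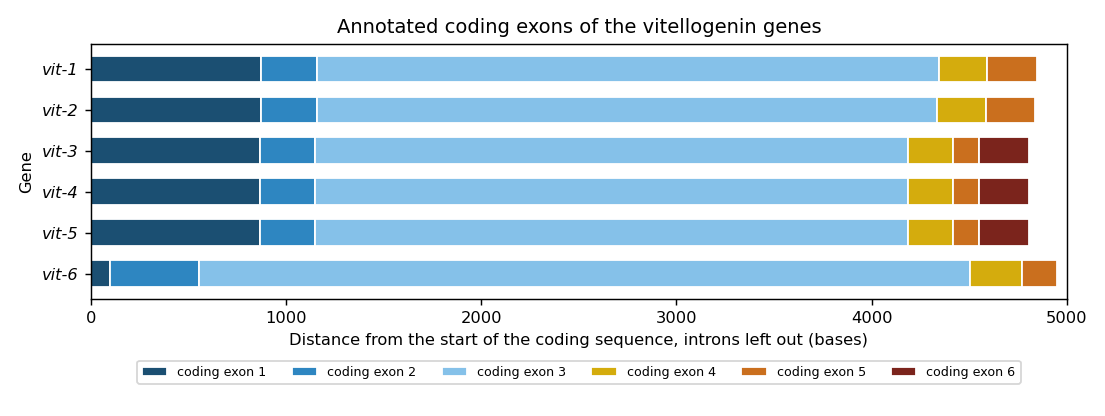
Lengths of the coding exons of the 6 vitellogenin genes in the WBcel235 annotation, drawn in transcript order, with the coding length in bases on the x axis. vit-3, vit-4 and vit-5 have identical exon lengths, vit-1 and vit-2 differ from each other by a few bases, and vit-6 has its own pattern.

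The members carried few reads. The libraries held 2104162 to 2728020 reads in input, 3248065 to 4872549 in HRDE-1 and 2991634 to 4992358 in CSR-1, of which 39.1% to 51.5% lay on gene models. Taken over 8966 genes together, the input pair showed no excess over counting error (chi-square test of reads, p = 0.750). It entered the fits as 1 sample. Levels are given in RPKM, reads scaled to the length of the gene model and to the library total, or in RPM, which is scaled to the library total alone, and every RPKM of the table came out as a whole number of reads within a relative tolerance of 1e-06. The members' summed reads were 76 and 92 in the 2 input libraries, 5 and 1 in HRDE-1, and 412 and 222 in CSR-1. In RPM these sums were 27.9 and 43.7 in input, 1.03 and 0.308 in HRDE-1, and 82.5 and 74.2 in CSR-1. The test of the input pair over all genes does not speak to the gap between its sums here. That gap was not tested on the members alone. Both HRDE-1 sums lay below both input sums and both CSR-1 sums lay above them.

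vit-1 and vit-2 encode yolk proteins of 1 closely related pair. vit-1 had 13 and 20 reads in input (0.939 and 1.87 RPKM), 1 and 1 in HRDE-1 (0.0404 and 0.0607 RPKM) and 95 and 57 in CSR-1 (3.75 and 3.75 RPKM). vit-2 had 8 and 6 reads in input (0.593 and 0.576 RPKM), 1 and 0 in HRDE-1 (0.0415 and 0 RPKM) and 37 and 18 in CSR-1 (1.5 and 1.22 RPKM). For both genes the groups did not overlap, with HRDE-1 lowest and CSR-1 highest. vit-1 had the widest gap between the input libraries in absolute RPKM, and vit-2 the narrowest.

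vit-3, vit-4 and vit-5 have the same coding exon lengths. vit-3 had 15 and 18 reads in input (1.13 and 1.75 RPKM), 1 and 0 in HRDE-1 (0.0420 and 0 RPKM) and 80 and 41 in CSR-1 (3.28 and 2.81 RPKM). vit-4 had 13 and 16 reads in input (0.978 and 1.56 RPKM), 1 and 0 in HRDE-1 (0.0421 and 0 RPKM) and 73 and 40 in CSR-1 (3.0 and 2.74 RPKM). vit-5 had 19 and 21 reads in input (1.43 and 2.05 RPKM), 1 and 0 in HRDE-1 (0.0421 and 0 RPKM) and 85 and 42 in CSR-1 (3.49 and 2.88 RPKM). The 3 genes were alike in every library, and their groups did not overlap. Their summed reads, which do not depend on how reads were split among these 3 copies if each read was counted once, were 47 and 55 in input, 3 and 0 in HRDE-1, and 238 and 123 in CSR-1.

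vit-6 encodes a yolk protein precursor that is cleaved after secretion. It had 8 and 11 reads in input (0.581 and 1.04 RPKM), 0 and 0 in HRDE-1 and 42 and 24 in CSR-1 (1.67 and 1.59 RPKM). No HRDE-1 library held a vit-6 read, and both CSR-1 libraries lay above both input libraries. The first HRDE-1 library held exactly 1 read on each of vit-1 to vit-5, and 1 shared read counted on each copy cannot be told apart from 5 separate reads.

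**Figure D2:**
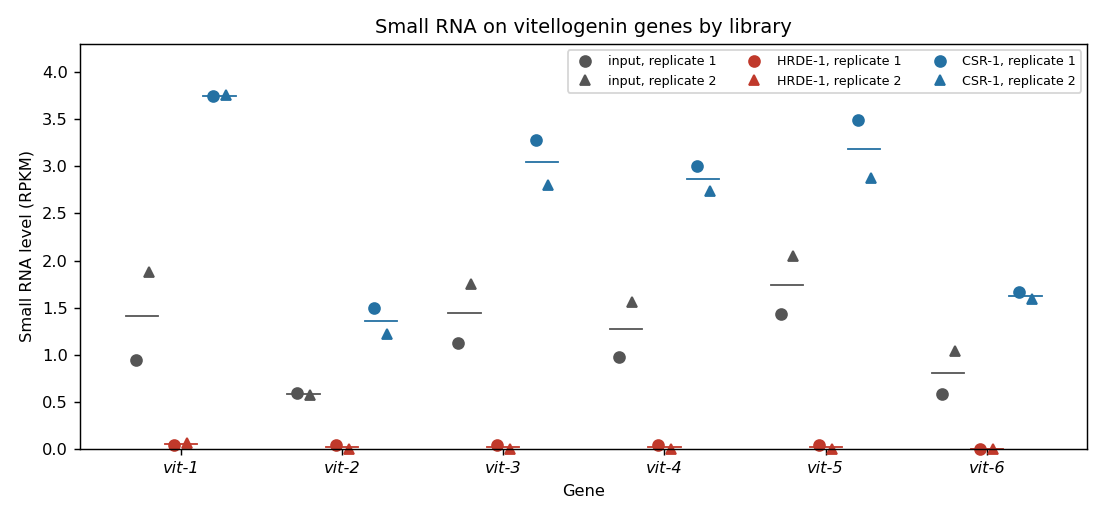
RPKM of each vitellogenin gene in each of the 6 sRIP libraries, with libraries as points and group means as short lines. HRDE-1 libraries lie at or near 0, input libraries between 0.576 and 2.05, and CSR-1 libraries between 1.22 and 3.75.

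The order of the mean levels in input was vit-5, vit-3, vit-1, vit-4, vit-6 and vit-2. Ranges of neighbouring genes in that order overlapped over the 2 libraries. In CSR-1 the order was vit-1, vit-5, vit-3, vit-4, vit-6 and vit-2, where vit-1 lay above vit-5 in both libraries and the ranges of vit-5, vit-3 and vit-4 overlapped. vit-6 and vit-2 lay below the other 4 genes in both CSR-1 libraries, and vit-6 lay above vit-2 in both. Set among all genes, the input level of the members exceeded that of 43.7% (vit-2) to 54.1% (vit-5) of genes, and their CSR-1 level exceeded that of 61.3% (vit-2) to 66.4% (vit-1). The yolk genes thus stood near the middle of all genes in input and above it in CSR-1. That middle was itself low, with a median over all genes of 1.10 RPKM in input and 0.26 in CSR-1. How far the lower CSR-1 median accounts for the rise in rank was not tested. Every member lay below the median of the genes tested in both groups, which was 15.7 RPKM in input.

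HRDE-1 precipitates held less small RNA on vitellogenin genes than the input did. Against input, 4 of 6 members fell, where 10.3% of the 10908 genes tested fell (limma on log2(RPKM + 1), Benjamini-Hochberg adjusted p under 0.05 and a log2 fold change of at least 1 in size). The log2 fold change was −1.42 for vit-5 (SE 0.22, limma adjusted p = 0.0117), −1.26 for vit-3 (SE 0.21, adjusted p = 0.0136), −1.20 for vit-1 (SE 0.20, adjusted p = 0.0139) and −1.15 for vit-4 (SE 0.20, adjusted p = 0.0147). vit-6 had −0.85 (SE 0.19, limma adjusted p = 0.0230), short of the fold threshold, and vit-2 had −0.63 (SE 0.20, limma adjusted p = 0.0541). The members' median was −1.17, beside −0.03 for all genes tested. All 6 had both HRDE-1 libraries below both input libraries, a pattern shared by 41.7% of genes tested. vit-3 and vit-5 reached the minimum for testing, an RPKM of at least 1 in 2 libraries, through input alone, and the other 4 members reached it with the help of the CSR-1 libraries.

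The pseudocount of 1 RPKM shrinks fold changes at these levels, and the pooled reads show how far the members lay apart. HRDE-1 over input, in RPM of the pooled reads, was 0.0361 for vit-1 (exact 95% counting interval 0.00419 to 0.141) and 0.0425 for vit-2 (0.00101 to 0.279). It was 0.0180 for vit-3 (0.000443 to 0.108), 0.0205 for vit-4 (0.000502 to 0.124) and 0.0149 for vit-5 (0.000368 to 0.0878). vit-6, with 0 reads in HRDE-1 and 19 in input, was at least 10.6-fold lower when 3 reads over the group are taken as the most that a count of 0 allows and the input reads as exact. The exact 95% interval of its ratio, which also covers the counting error of input, reached up to 0.128. These intervals cover counting error only, and every upper bound lay below 1. Over all genes the HRDE-1 pair differed by more than counting error. Its chi-square per degree of freedom was 1.97, beside 1.06 in CSR-1 and 0.99 in input, so the intervals leave out part of the spread. These values are over all genes, and the spread of the input pair on the members alone was not tested. The CSR-1 pair also differed by more than counting error, though by less than the HRDE-1 pair (chi-square test p = 5.6e-05). With a pseudocount of 0.1 all 6 members fell, beside 11.5% of genes tested, and with voom weights on the deduced reads all 6 fell, beside 13.3%.

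With the median level of each library set equal, 1 member, vit-5, was past both thresholds, beside 3.05% of genes tested. Without input replicate 2, vit-3 and vit-5 did. Without either HRDE-1 library or either CSR-1 library 0 did, where each fit has a single residual degree of freedom.

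**Figure D3:**
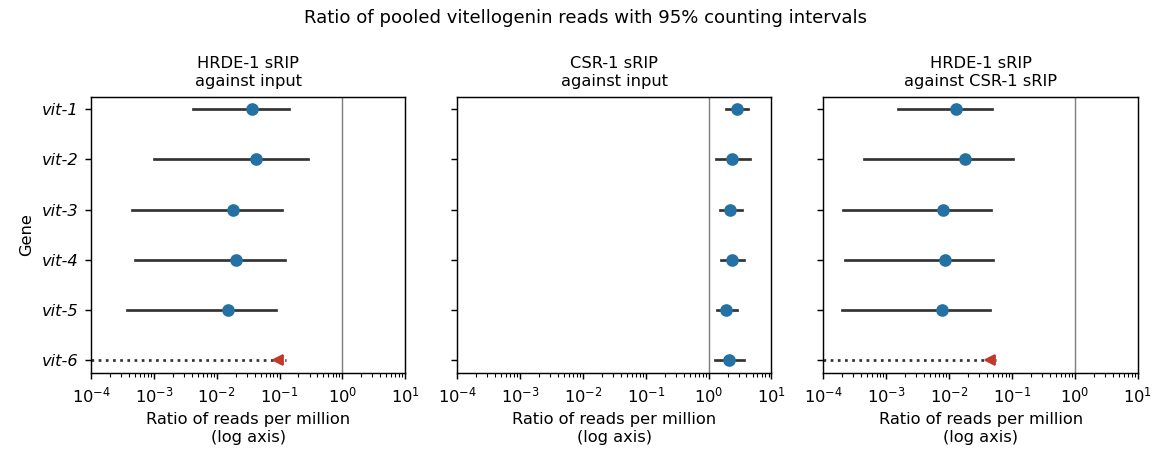
Ratio of pooled RPM for each vitellogenin gene, on a log axis, for HRDE-1 against input, CSR-1 against input and HRDE-1 against CSR-1. Bars are exact 95% counting intervals, and an arrow marks the bound of vit-6, which had 0 HRDE-1 reads. All ratios of HRDE-1 to input or to CSR-1 lie below 1, and all ratios of CSR-1 to input above 1.

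In CSR-1 precipitates the vitellogenin genes had a higher RPM than in input, by 1.92-fold to 2.79-fold, but none reached the thresholds of the fit. On log2(RPKM + 1), 0 of 6 were called higher, where 7.13% of genes tested were called higher and 36.8% lower. At an adjusted p under 0.05 alone, vit-1 had 0.98 (SE 0.20, limma adjusted p = 0.0111), vit-4 0.77 (adjusted p = 0.0229) and vit-3 0.73 (adjusted p = 0.0311), all short of the fold threshold of 1. vit-5 had 0.61 (limma adjusted p = 0.0570), vit-2 0.57 (adjusted p = 0.0514) and vit-6 0.54 (adjusted p = 0.0524). The members' median was 0.67, and that of all genes tested was −0.54. All 6 had both CSR-1 libraries above both input libraries, as had 33.2% of genes tested. The CSR-1 libraries also helped bring vit-1, vit-2, vit-4 and vit-6 to the minimum for testing, which favours higher CSR-1 values among them.

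The ratios of pooled RPM, CSR-1 over input, were 2.79 for vit-1 (exact 95% counting interval 1.90 to 4.2), 2.38 for vit-2 (1.30 to 4.63) and 2.22 for vit-3 (1.5 to 3.37). They were 2.36 for vit-4 (1.56 to 3.68), 1.92 for vit-5 (1.34 to 2.81) and 2.10 for vit-6 (1.25 to 3.71). Every lower bound lay above 1, for counting error only, and over all genes the CSR-1 pair differed by slightly more than that error. The size of the ratio depended on the library pair, from 2.44 to 3.99 for the libraries numbered 1 and from 1.41 to 2.11 for those numbered 2. The titles of the libraries numbered 1 share a code, and so do those numbered 2, and what the code marks is not given. Over the family sum the CSR-1 ratio to input was 2.96 within number 1 and 1.70 within number 2, and the HRDE-1 ratio was 0.0368 and 0.00704, on 5 and 1 HRDE-1 reads.

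The call on CSR-1 depended on how the libraries were scaled, and also on the pseudocount and on voom weights. The pseudocount of 1 RPKM shrank fold changes here too. With 0.1 in its place they ran from 0.83 for vit-5 to 1.35 for vit-1. On the deposited scale the median gene lay 0.54 below input in CSR-1, and relative to it the vitellogenin genes stood higher. With the median ratio to input set to 0, the members' log2 fold changes were 1.52 for vit-1, 1.30 for vit-4, 1.26 for vit-3, 1.14 for vit-5, 1.10 for vit-2 and 1.07 for vit-6, and all 6 were called, beside 25.5% of genes tested (limma adjusted p from 0.00158 for vit-1 to 0.00688 for vit-6). With library medians set equal all 6 were called, beside 23.3%. With voom weights 5 were called, beside 9.16%, and vit-5 had 0.93. With a pseudocount of 0.1 1 member, vit-1, was called, beside 7.94%, and vit-1 was also the 1 member called without input replicate 2.

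**Figure D4:**
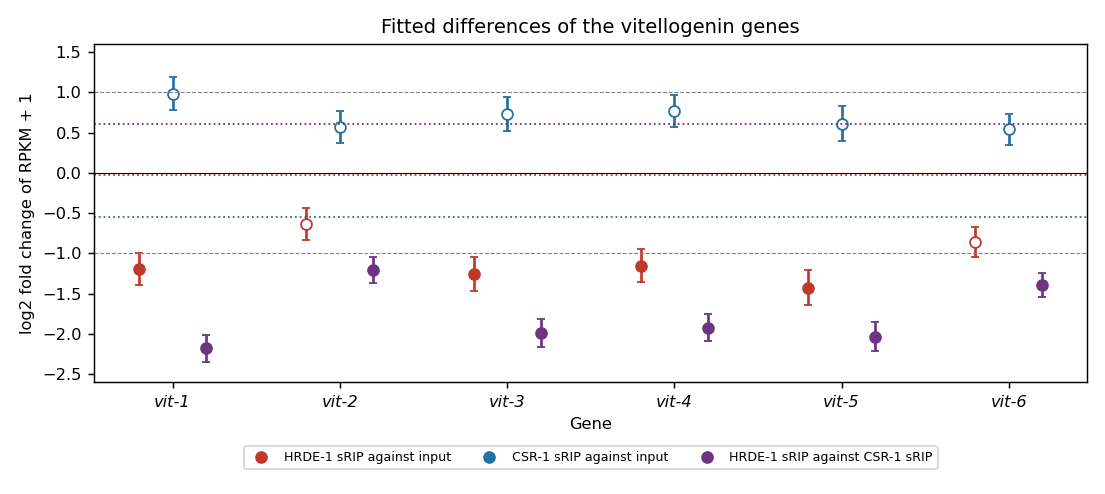
Log2 fold changes on log2(RPKM + 1) of the 6 vitellogenin genes in the 3 comparisons, with standard errors as bars, dashed lines at the thresholds of −1 and 1 and dotted lines at the median of all genes tested in each comparison. HRDE-1 against CSR-1 lies below −1 for every member, and CSR-1 against input lies between 0.54 and 0.98.

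The direct comparison of the precipitates gave the plainest difference. All 6 members were lower in HRDE-1 than in CSR-1, where 26.6% of genes tested were lower. vit-2 reached the minimum for testing through CSR-1 alone, and vit-1, vit-4 and vit-6 with its help. For these genes the comparison is therefore not independent of the filter. Without that filter all 6 were also lower, as were 2858 of 16433 genes. The log2 fold change on log2(RPKM + 1) was −2.18 for vit-1, −2.03 for vit-5, −1.98 for vit-3, −1.92 for vit-4, −1.39 for vit-6 and −1.21 for vit-2 (limma adjusted p from 0.000206 to 0.00137). The members' median was −1.95, beside 0.60 for all genes tested. Both HRDE-1 libraries lay below both CSR-1 libraries for all 6, as for 39.5% of genes tested. In pooled RPM, HRDE-1 over CSR-1 was 0.0129 for vit-1, 0.0179 for vit-2, 0.00813 for vit-3, 0.00870 for vit-4 and 0.00774 for vit-5. vit-6, with 0 HRDE-1 reads against 66 in CSR-1, was at least 22.4-fold lower by the same 3-read limit, and the exact 95% interval of its ratio reached up to 0.0565. The 6 calls were made under every alternative run, leaving out each library in turn included. This comparison shares its libraries with the comparisons above.

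**Figure D5:**
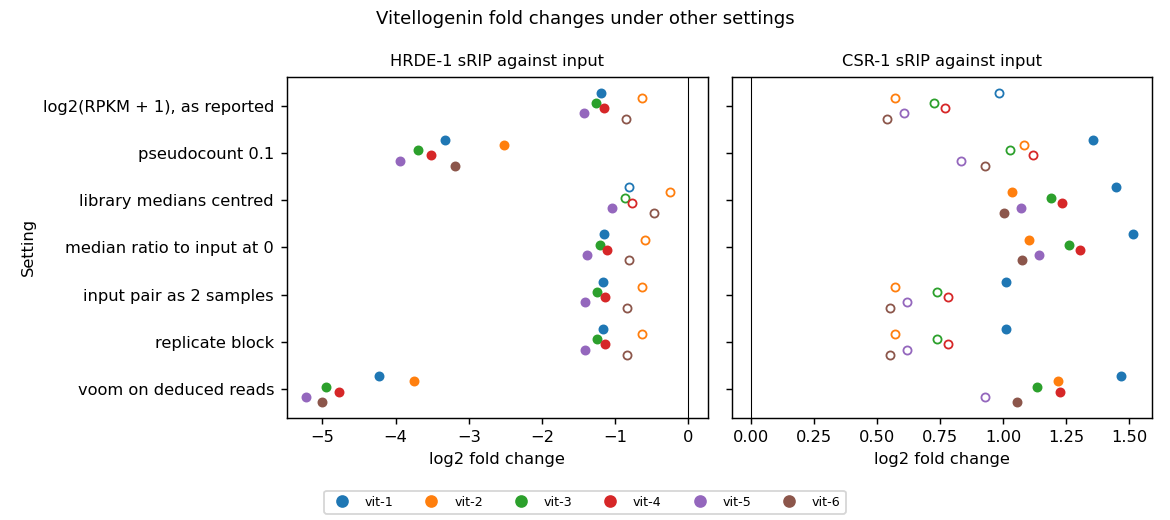
Log2 fold changes of each vitellogenin gene against input, for HRDE-1 and CSR-1, under the settings named on the y axis, with filled points for genes past both thresholds. Signs are the same under every setting shown, while the size varies with the pseudocount, with voom weights and with the scaling in both comparisons.

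The yolk receptor gene rme-2, which acts in the oocyte, carried far more small RNA than any vitellogenin gene. Its level was 73.5 and 80.2 RPKM in input, 20.5 and 21.0 in HRDE-1, and 156 and 180 in CSR-1. The groups did not overlap and were ordered as for the vitellogenin genes. rme-2 fell in HRDE-1 by 1.84 on log2(RPKM + 1) (limma adjusted p = 0.00893) and rose in CSR-1 by 1.11 (adjusted p = 0.00212). Between the precipitates, HRDE-1 against CSR-1, rme-2 had −2.95 (limma adjusted p = 4.80e-05).

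For the gene lists that follow, the shares over all genes tested are 10.3% lower and 7.15% higher in HRDE-1 against input (median −0.03), 36.8% lower and 7.13% higher in CSR-1 against input (median −0.54), and 26.6% lower and 43.7% higher in HRDE-1 against CSR-1 (median 0.60). Of 20 genes of yolk uptake and endocytosis, 4 fell and 2 rose in HRDE-1 (median −0.67), 5 rose and 2 fell in CSR-1 (median 0.66), and 13 were lower and 2 higher in HRDE-1 than in CSR-1 (median −1.43). rab-7, a late endosome GTPase gene, fell by 1.38 in HRDE-1 and rose by 1.02 in CSR-1. rme-1, a gene of endosome recycling, rose by 1.35 in CSR-1. cav-1, a caveolin gene, went the other way, with 1.41 in HRDE-1 and −1.49 in CSR-1. dpy-23, a clathrin adaptor gene, rose by 1.35 in HRDE-1, and rme-6, a gene acting with RAB-5, fell by 1.28 in CSR-1. alx-1 rose by 1.12 in CSR-1, a call lost when no low-value filter was used (limma adjusted p = 0.0733), and that of cav-1 in CSR-1 was lost with the median ratio to input set to 0 (−0.96). The calls of rab-7 in HRDE-1 and rme-6 in CSR-1 were lost with library medians set equal.

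Of genes known to regulate vitellogenin transcription, most of those tested fell in CSR-1 on the deposited scale. Of the 12 with a row, 7 were tested, of which 1 rose and 0 fell in HRDE-1 (median 0.24), while 1 rose and 5 fell in CSR-1 (median −1.11), where 36.8% of all genes tested fell with a median of −0.54. unc-62, a homeodomain gene needed for vitellogenin expression, rose by 1.12 in CSR-1. hlh-30, the worm's TFEB gene, fell by 2.10 there, daf-16, the FOXO gene, by 1.24 and blmp-1 by 1.25. The calls of daf-16 and blmp-1, and that of mab-3 in CSR-1, were lost with library medians set equal or the median ratio set to 0. Under these scalings most of the list was thus no longer called lower. mab-3, which represses vitellogenins in males, had 1.33 in HRDE-1 and −1.11 in CSR-1 on 38 reads in HRDE-1, 7 in input and 1 in CSR-1, and both calls were lost with a pseudocount of 0.1.

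Of 22 genes of intestinal lipid synthesis and transport 12 were tested, of which 4 fell in HRDE-1 (median −0.82) and 3 in CSR-1 (median −0.38), with 0 rising in either. Over all genes tested, 10.3% fell in HRDE-1 and 36.8% in CSR-1, and the list's CSR-1 median lay above the −0.54 of all genes. elo-5, a fatty acid elongase gene, fell by 2.76 in HRDE-1, where it had 1 read against 31 in input. mdt-15, a mediator subunit gene, fell by 1.31, and fat-1 and nhr-49 by 1.07 and 1.03. In CSR-1 lbp-1, a fatty acid binding protein gene, fell by 2.62, the desaturase gene fat-2 by 2.56 and elo-2 by 1.39. The calls of mdt-15, fat-1 and nhr-49 in HRDE-1, and that of elo-2 in CSR-1, were lost with library medians set equal.

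Intestinal markers were low in all libraries. Of the 21 with a row, 8 were tested, of which 4 fell and 0 rose in HRDE-1 (median −1.0), and 1 fell and 0 rose in CSR-1 (median −0.05, above the −0.54 of all genes tested). Over all genes tested, 10.3% fell in HRDE-1 and 36.8% in CSR-1. Their summed level was 22.1 and 18.9 RPKM in input, 9.82 and 6.68 in HRDE-1, and 18.5 and 13.6 in CSR-1. Of the 21 markers, 3 and 4 were at 0 in the input libraries, 11 and 14 in HRDE-1, and 6 and 6 in CSR-1. The summed level in CSR-1 thus lay below input, while each vitellogenin gene lay above it. Among the markers named here, vha-6 had both CSR-1 libraries above both input libraries. The markers lys-4 and asp-1 had a higher mean level in CSR-1 than in input, with overlapping libraries. That of asp-3, ifc-2 and mtl-2 was lower in CSR-1. The 4 that fell in HRDE-1 were ifc-2 (−1.40), lys-4 (−1.37), asp-1 and asp-3. asp-1 and asp-3 had 0 reads there against 10 and 7 in input, and all 4 calls were lost when no low-value filter was used. mtl-2, called lower in CSR-1, had 0 reads against 3 in input, which allows no fold. vha-6, a proton pump subunit gene, had 1 read in HRDE-1 against 44 in CSR-1. Its CSR-1 levels of 2.23 and 1.73 RPKM lay above its input levels of 0.951 and 1.06, as for the vitellogenin genes. That rise of 0.57 was not called (limma adjusted p = 0.0679).

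Of 13 oogenic germline markers tested, 9 fell and 0 rose in HRDE-1 (median −1.16), beside 10.3% and 7.15% of all genes, and 4 rose and 0 fell in CSR-1 (median 0.76, lowest −0.48), beside 7.13% and 36.8%. Of 6 sperm markers tested all 6 fell in CSR-1 (median −2.52), of 9 neuronal markers 6 fell there (median −1.18) and 3 rose in HRDE-1 (median 0.75), and of 3 hypodermal markers 2 fell in CSR-1. Over all genes tested, 36.8% fell in CSR-1 and 7.15% rose in HRDE-1. The part of tissue makeup in the vitellogenin values was not tested.

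Among the vitellogenin genes, vit-3, vit-5 and vit-4 were nearest to vit-1, the member with most reads, with Euclidean distances of 0.392, 0.461 and 0.465 on log2(RPKM + 1) over the 6 libraries, nearer than all 20196 genes outside the family. vit-6 lay at 1.34, with 34 other genes nearer, and vit-2 at 1.71, with 109 nearer. The nearest genes outside the family were ZK899.6 at 0.596, ztf-11 at 0.808, F28C1.3 at 0.812, act-4 at 0.929 and F35H12.4 at 0.936. Closeness among copies is a description, since shared reads may be counted on each.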

How the data were processed

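Small RNA libraries of the HRDE-1 sRIP, the CSR-1 sRIP and their input were used, 2 of each. Per the labels' protocols, small RNA was treated with phosphatase and T4PNK before linker ligation. Bowtie 1.2.3 is named in the submitters' processing notes. The authors deposited RPKM values per gene model, and how they treated strand and reads that match several places is not given in the sources used here. A further deposited table has 45 library-code columns that match no sample title here and was not used.

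Reads and library totals were deduced from the RPKM steps, and all 80624 non-zero values came out whole. Genes with RPKM of at least 1 in 2 libraries (10908 of 20202) were fitted with limma 3.58.1 in R 4.3.3 on log2(RPKM + 1), trended prior, 5 samples in 1 fit (input pair averaged), with residual df 2 and prior df 2.80. The residual df came from the HRDE-1 and CSR-1 pairs, so differences between the input libraries added nothing to the spread. With input as 2 samples, the SE of vit-1 in HRDE-1 against input was 0.27 instead of 0.20, and 4 members were still called. The limma script was tested on simulated data. Counting intervals are exact conditional binomial at 95% (scipy 1.17.1) and cover counting error only. Where a symbol had several models, the one with the highest mean RPKM was kept.

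Members, gene lists and tests were chosen with earlier results of these data known. Genes named are the 6 members, rme-2, up to 4 called genes of largest fold change per list and comparison, and the 5 genes nearest to vit-1. The list genes daf-2, rict-1, dgat-2, ifo-1, pept-1, fil-1 and cbd-1 were not analysed here. Of body wall muscle markers 2 were tested, of which 1 was called lower in HRDE-1 and 1 in CSR-1 against input. Alternatives were the pseudocount, the filter, 2 scalings, the input pair as 2 samples, a replicate block, voom weights and leaving out each library.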

Additional observations from a re-analysis of the deposited data

How the results depend on the processing

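The direction of every vitellogenin gene in the 3 comparisons was the same under all alternatives run. HRDE-1 against input called 4 members, 1 with library medians set equal, and 0 to 5 on leaving out 1 library in turn, with 0 to 2301 genes called in all against 1904. Without HRDE-1 replicate 1 or 2, 189 and 168 genes were called. Without CSR-1 replicate 1 or 2, 0 were, while 5512 and 5508 had an unadjusted p under 0.05. CSR-1 against input called 0 members, 1 with a pseudocount of 0.1, 1 with that pseudocount and no filter together (an alternative chosen after seeing the data), 1 with the input pair as 2 samples, 6 with library medians set equal, 6 with the median ratio set to 0, 5 with voom weights and 0 to 1 on leaving out 1 library, with 3859 to 4889 genes called in all against 4797. HRDE-1 against CSR-1 called 6 members throughout, with 6949 to 7668 genes called on leaving out 1 library. The balance of calls over all genes turned with the scaling: the share of higher calls was 41% in HRDE-1 and 16.2% in CSR-1 on the deposited scale, 87.1% and 46.1% with library medians set equal, and 49.1% and 49.8% with the median ratio set to 0, which moved that of HRDE-1 against CSR-1 from 62.2% to 49.5%. Dividing by reads on gene models gave family sums over input of 0.0194 in HRDE-1 and 2.75 in CSR-1, against 0.0186 and 2.19, and the ratios within each library number (0.0368 and 0.00704 in HRDE-1, 2.96 and 1.70 in CSR-1) lay farther apart. Same-numbered libraries hardly deviated together (correlations of 0.0233, 0.00434 and 0.0333), and the labels do not say what their shared title code marks, so they were not treated as paired. With the replicate number as a block, 4 members were called in HRDE-1 (2099 genes) and 1 in CSR-1 (4894 genes). With 6 HRDE-1 reads in all on the family, counting error is wide there.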
